A study of Homo sapiens with 15 samples.

Results

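The nuclear-encoded subunits of the mitochondrial respiratory chain were followed through senescence and TXNRD1 inhibition in IMR90 fibroblasts from human fetal lung. They were taken by gene symbol from the 57736 genes of the deposited count table: NDUFA, NDUFB, NDUFC, NDUFS and NDUFV genes with a number only, SDHA to SDHD, 8 UQCR genes and 10 COX genes. This gave 59 genes, of which 37 belong by this naming to complex I, 4 to complex II, 8 to complex III and 10 to complex IV. All 59 are among the 15994 genes that passed the filter on low counts. The study sequenced total RNA from 5 groups of 3 libraries: senescent cells with the inhibitor TRi-1, senescent cells with its vehicle DMSO, senescent cells carrying a short hairpin RNA that targets TXNRD1 (shTXNRD1), senescent control cells and growing control cells. All groups but the last are senescent, and no genetic change other than the hairpin is named in the labels. TXNRD1 is the cytosolic thioredoxin reductase, which uses NADPH to keep thioredoxin reduced, and TRi-1 inhibits the enzyme rather than its transcript. The way senescence was induced, the dose and duration of TRi-1, the control for the hairpin and the origin of the replicates are not given in the labels, so p-values measure the spread between these libraries, which may be technical.

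The respiratory chain passes electrons from NADH and succinate to oxygen across the inner mitochondrial membrane. Complex I (NADH dehydrogenase) and complex II (succinate dehydrogenase, also an enzyme of the citric acid cycle) reduce ubiquinone, complex III passes the electrons on to cytochrome c, and complex IV (cytochrome c oxidase) reduces oxygen. Complexes I, III and IV pump protons, and ATP synthase uses the gradient. Each of these pumps also holds subunits encoded by mitochondrial DNA, which form part of its catalytic centre, whereas complex II is wholly nuclear-encoded. The nuclear complex I subunits divide into core subunits, which carry the flavin and iron-sulphur clusters and are conserved in bacteria, and accessory subunits, which surround the core. NDUFA4 carries a complex I name but is now classed with complex IV. Mitochondrially encoded subunits were not analysed here, since the table holds 0 genes of that chromosome.

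Library totals ran from 18033076 to 28909046 counts (median 21156213). TXNRD1 averaged 22.6 ± 2.3 CPM (a gene's share of the library total, scaled by TMM) in shTXNRD1 libraries and 515 ± 12 CPM in senescent control libraries (SD, n = 3 each), and 431 ± 11.6 CPM with TRi-1 and 408 ± 19.3 CPM with DMSO. It averaged 515 ± 12 CPM in senescent control libraries and 1635 ± 130 CPM in growing control libraries. The TXNRD1 transcript was thus also lower in senescent cells of the control condition (log2 fold change -1.67 ± 0.07 SE, adjusted p = 1.12e-10). All 10 fibroblast markers examined were detected. Their summed level, mostly FN1 and collagens, was 25539 to 25899 CPM with TRi-1 and 31458 to 33995 CPM with DMSO, and 24274 to 26768 CPM with shTXNRD1, 28740 to 30824 CPM in senescent control and 27617 to 32321 CPM in growing control libraries. Of the 10, 7 fell and 1 rose with TRi-1 against DMSO (median -0.69), 6 fell and 2 rose with shTXNRD1 against senescent control (median -0.92), and 5 fell and 1 rose in senescent control against growing control (median -0.26). LUM averaged 54.1 ± 1.08 CPM with TRi-1 and 132 ± 6.98 CPM with DMSO, and VIM 1188 ± 51.3 CPM with shTXNRD1 and 2874 ± 19.9 CPM in senescent control libraries (SD, n = 3 each). LUM went the other way with the hairpin, at 339 ± 45.7 CPM, against 259 ± 7.01 CPM in senescent control libraries. VIM went the other way with TRi-1, at 3891 ± 15.1 CPM, against 3502 ± 54.7 CPM with DMSO. Of the 7 epithelial markers SFTPC and NKX2-1 were at 0 in all libraries, and the summed list, made up largely of KRT18, was 56.4 to 57.1 CPM with TRi-1 and 45.4 to 48.1 CPM with DMSO. It was 55.2 to 67.4 CPM with shTXNRD1, 49.8 to 55.5 CPM in senescent control and 59.9 to 82.8 CPM in growing control libraries. Of the 4 epithelial markers tested, 1 rose and 1 fell with shTXNRD1 against senescent control. EPCAM averaged 3.63 ± 0.506 CPM with shTXNRD1 and 1.08 ± 0.337 CPM in senescent control libraries. KRT8 went the other way, with 3.48 ± 1.12 CPM with shTXNRD1 and 5.7 ± 0.87 CPM in senescent control libraries. The leukocyte marker CD3E was at 0 in all libraries. The summed leukocyte list, made up largely of CD68, was 92.3 to 93.9 CPM with TRi-1 and 57.4 to 74.9 CPM with DMSO. It was 19.1 to 39 CPM with shTXNRD1, 72.9 to 81.4 CPM in senescent control and 15.7 to 26.1 CPM in growing control libraries. The endothelial list, nearly all of it TEK, was 51.6 to 55 CPM with TRi-1 and 85.4 to 91.1 CPM with DMSO, and 105 to 132 CPM with shTXNRD1, 160 to 172 CPM in senescent control and 109 to 133 CPM in growing control libraries. Of its 4 members tested, 3 fell and 1 rose with shTXNRD1 against senescent control. KDR averaged 8.24 ± 0.727 CPM with shTXNRD1 and 0.471 ± 0.111 CPM in senescent control libraries, against the direction of the sum. The part of these marker differences in the results below was not tested.

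Libraries of a group differed in how their genes deviated with transcript GC content. The Spearman correlation between a gene's deviation from its group mean and its GC content was -0.692 in growing control replicate 1, -0.67 in shTXNRD1 replicate 3 and -0.585 in DMSO replicate 1, and between -0.456 and 0.646 in the other 12 libraries. The 6 subunits with a GC content of at least 60% (NDUFV1, NDUFA13, NDUFA11, NDUFS8, NDUFB7 and NDUFS7, a threshold set after the data were seen) varied more between replicates, by their median, than the other 53. Their median coefficient of variation was 11.9% with TRi-1, 18.9% with DMSO, 49.5% with shTXNRD1, 25.2% in senescent control and 48.5% in growing control libraries. For the other 53 subunits it was 3.04% with TRi-1, 5.28% with DMSO, 11.9% with shTXNRD1, 5.28% in senescent control and 8.21% in growing control libraries. NDUFA3, just outside the threshold at a GC content of 59.9%, had coefficients of 55.5% with shTXNRD1 and 52.4% in growing control libraries, above several of the 6. As an example of the 6, NDUFB7, a complex I accessory subunit of the intermembrane space side, had 7.05, 2.1 and 0.843 CPM with shTXNRD1, 8.56, 9.15 and 4.85 CPM in senescent control and 0.793, 5.34 and 7.52 CPM in growing control libraries. Its groups overlap throughout, and its change with the hairpin (-1.18 ± 0.71, adjusted p = 0.19) did not pass the test, although it was the largest of the 59. Calls gained or lost without the 3 libraries named above, or after a GC correction, are therefore named with each comparison.

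**Figure D1:**
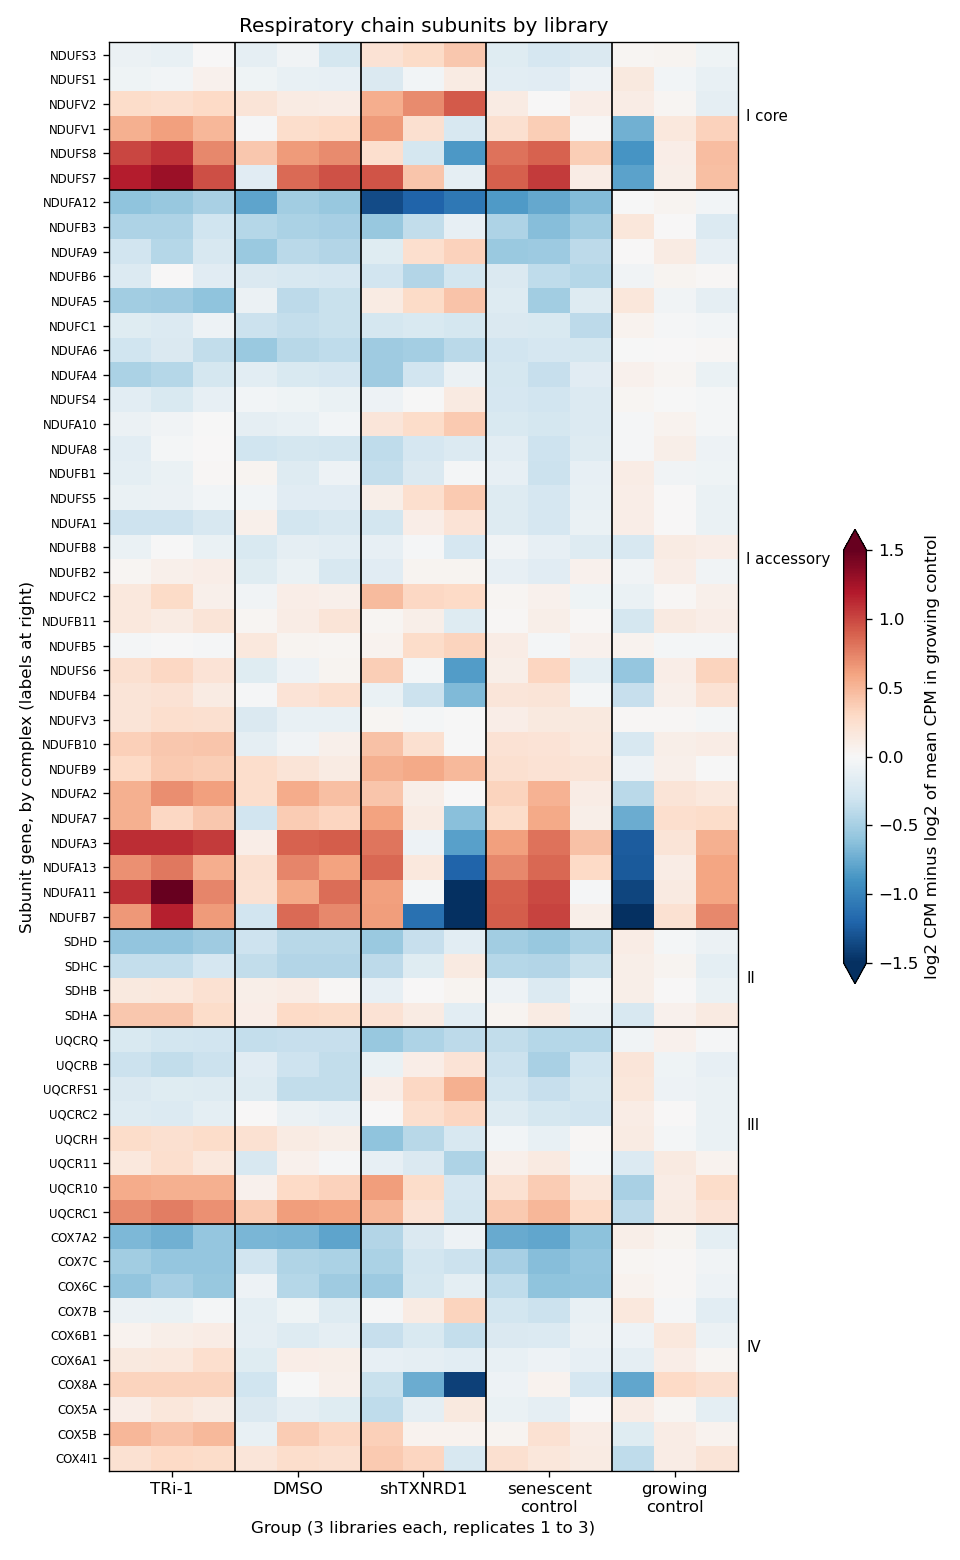
Level of 58 of the 59 subunits (rows, by complex) in the 15 libraries (columns, by group), as log2 CPM minus the log2 of the gene's mean CPM in growing control; colours saturate at 1.5 either way. NDUFA12, SDHD, COX7A2, COX7C and COX6C are blue in all senescent control libraries, and the rows from NDUFA3 to NDUFB7 differ as much between replicates of a group as between groups.

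Senescent control cells were first compared with growing control cells, which asks how the chain's transcripts stood in senescence. Of the 59 subunits, 22 fell and 2 rose (37.3% and 3.39%), where 29.5% of all 15994 genes tested fell and 27.4% rose. The median change of the 59 was -0.10 on the log2 scale, against 0.03 over all genes, and the changes were small: the median absolute change was 0.23 for the subunits and 0.47 for all genes, and none of the 59 changed by 2-fold. Summed over the 59 subunits, a quantity weighted towards the most counted transcripts, the level was 3711 ± 39.6 CPM in senescent control and 4017 ± 110 CPM in growing control libraries (SD, n = 3 each). In bulk RNA fewer cells with a transcript and less of it per cell cannot be told apart.

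In complex II, 2 of 4 subunits were called, both lower. SDHC and SDHD, the membrane anchors that hold the haem and the ubiquinone site, both fell, while SDHA, the flavoprotein that oxidises succinate, and SDHB, the iron-sulphur subunit, did not pass the test. SDHD had 57.7, 55.9 and 59.6 CPM in senescent control and 88.9, 81.1 and 77.7 CPM in growing control libraries (log2 fold change -0.52 ± 0.08, adjusted p = 0.000126). SDHC had 87, 86.6 and 92.5 CPM in senescent control and 124, 120 and 106 CPM in growing control libraries (-0.40 ± 0.10, adjusted p = 0.00455). For both anchors every senescent control library lay below every growing one. SDHB changed by -0.11 ± 0.07 (adjusted p = 0.19) and SDHA by 0.03 ± 0.11 (adjusted p = 0.802), with overlapping groups. The sign of SDHA turned without the low-GC libraries (-0.07), and the difference between the anchors and the other subunits was not tested. Pseudogenes of SDHA reached 23.4% of its level, so its count is uncertain, and SDHD overlaps TIMM8B on the opposite strand. Over all 4 subunits the summed level was 308 ± 1.15 CPM in senescent control and 363 ± 9.29 CPM in growing control libraries.

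In complex IV, 3 of 10 subunits fell and 7 did not pass the test. The 3 are small subunits with a single membrane helix, a trait shared by COX8A, which did not pass the test. COX7A2, the ubiquitous form of subunit VIIa, had 68.5, 67.8 and 75.5 CPM in senescent control and 123, 119 and 105 CPM in growing control libraries (-0.71 ± 0.09, adjusted p = 8.46e-06). COX7C had 82, 74.7 and 77.9 CPM in senescent control and 118, 117 and 112 CPM in growing control libraries (-0.56 ± 0.07, adjusted p = 6.12e-06), and COX6C fell by 0.52 ± 0.12 (adjusted p = 0.00163). None of these groups overlapped. COX4I1 and COX5A, among the first nuclear subunits to join the core, changed by 0.18 ± 0.15 and -0.08 ± 0.11 and did not pass. The summed level was 809 ± 10.1 CPM in senescent control and 923 ± 54.5 CPM in growing control libraries.

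In complex III, 4 of 8 subunits fell. UQCRQ, which sits beside cytochrome b, had 50.9, 48.7 and 48.8 CPM in senescent control and 63.3, 68.8 and 65 CPM in growing control libraries (-0.41 ± 0.06, adjusted p = 3.18e-05), so the groups lay well apart. UQCRB, which also binds cytochrome b, changed by -0.37 ± 0.09 (adjusted p = 0.00356). UQCRFS1, the Rieske iron-sulphur protein that takes electrons from ubiquinol, changed by -0.29 ± 0.10 (adjusted p = 0.0209), and UQCRC2, a core protein of the matrix side, by -0.25 ± 0.08 (adjusted p = 0.0116). The UQCRFS1 call was lost without growing control replicate 1 or senescent control replicate 2, and the UQCRC2 call after the GC correction. UQCRC1, the other core protein, had 143, 154 and 134 CPM in senescent control and 82.7, 119 and 126 CPM in growing control libraries (0.39 ± 0.18, adjusted p = 0.0769). Its growing control value is lowest in replicate 1, the library at the low-GC end. UQCRC1 was called higher without the 3 low-GC libraries, after the GC correction and in DESeq2.

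Among the 7 core subunits of complex I, NDUFS3 alone was called, and it fell. This subunit of the ubiquinone-reducing module had 30.5, 29.1 and 29.9 CPM in senescent control and 35.5, 35.6 and 33.2 CPM in growing control libraries (-0.22 ± 0.07, adjusted p = 0.0154), and its call was lost when these groups were fitted alone and with a filter at a mean CPM of 5. NDUFS7 and NDUFS8, which carry the last iron-sulphur clusters before ubiquinone, stood at 0.75 ± 0.38 (adjusted p = 0.108) and 0.71 ± 0.31 (adjusted p = 0.0668). Both have a GC content above 60% and overlapping groups, and NDUFS8 was called higher in DESeq2, in limma-voom and after the GC correction. NDUFV1, which binds NADH and the flavin, changed by 0.22 ± 0.25 and did not pass either. NDUFS1, the largest subunit of the complex, had 149, 148 and 158 CPM in senescent control and 184, 161 and 154 CPM in growing control libraries (-0.13 ± 0.08, adjusted p = 0.192), with overlapping groups. The summed level of the 7 core subunits was 446 ± 3.06 CPM in senescent control and 444 ± 8.96 CPM in growing control libraries, a difference within the spread of replicates.

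Of the 30 accessory subunits of complex I, 12 fell and 2 rose. NDUFA12, a matrix-arm subunit related to an assembly factor, showed the largest called change of the 59: 25.1, 26.5 and 28.7 CPM in senescent control and 44.8, 46.4 and 44 CPM in growing control libraries (-0.75 ± 0.08, adjusted p = 3.23e-06). NDUFB3, of the membrane arm, had 42.6, 37.6 and 40.8 CPM in senescent control and 65.8, 59.1 and 51.1 CPM in growing control libraries (-0.54 ± 0.11, adjusted p = 0.000728). In neither gene did the groups overlap. NDUFB6, also of the membrane arm, changed by -0.34 ± 0.08 (adjusted p = 0.00161) and NDUFA6, which binds the mitochondrial acyl carrier protein, by -0.27 ± 0.06 (adjusted p = 0.00195). Both of these calls were lost after the GC correction. The 8 other falls were those of NDUFA9 (-0.50), NDUFA5 (-0.29), NDUFC1 (-0.28), NDUFA4 (-0.26), NDUFS4 (-0.25), NDUFA10 (-0.23), NDUFA8 (-0.22) and NDUFS5 (-0.19). Of these, NDUFA5, NDUFC1, NDUFA4, NDUFS4 and NDUFS5 were no longer called after the GC correction. NDUFB9, which also binds acyl carrier protein, was higher, with 80.4, 79 and 77.6 CPM in senescent control and 64.7, 72 and 67.6 CPM in growing control libraries (0.21 ± 0.06, adjusted p = 0.0055). NDUFV3, a small peripheral subunit of the NADH-oxidising module, also rose, by 0.13 ± 0.05 (adjusted p = 0.0405), a call lost in DESeq2 and in all 6 refits with a library left out.

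The change in senescence went with GC content across the 59 subunits, with a Spearman correlation of 0.70, against 0.28 across all genes tested; the points share libraries, and the value is a description. After the GC correction, 14 of the 22 falls were still called, COX6B1, NDUFB8, NDUFB11 and UQCR11 were also called lower, and NDUFB5, NDUFS8, NDUFV2, UQCRC1 and UQCRH joined the 2 called higher. Without the 3 low-GC libraries the NDUFA5 fall was lost and the other 21 were still called, COX6A1, COX6B1, COX8A and NDUFB8 were also called lower, and UQCRC1 was also called higher. Leaving out growing control replicate 1 or 2, or senescent control replicate 1 or 2, left 1 subunit called higher.

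Promoters are shown for members of complexes I, III and IV that were lower in senescent control cells and higher with the hairpin, 1 per complex, and for NDUFA12, which fell in both comparisons. The sequences come from RefSeq (GRCh38.p14), from 250 bases before to 50 after the annotated start, and matched 50 of the 59 genes. They were searched on both strands for motifs of nuclear respiratory factor 1 (NRF1, GCGCA and GCGC with any base between them), ETS-family factors such as NRF-2/GABP (CCGGAAG) and YY1 (AANATGGCG), which are known regulators of respiratory chain genes. Capitals mark a match.
NDUFA9, chr12:4648864-4649163, plus strand: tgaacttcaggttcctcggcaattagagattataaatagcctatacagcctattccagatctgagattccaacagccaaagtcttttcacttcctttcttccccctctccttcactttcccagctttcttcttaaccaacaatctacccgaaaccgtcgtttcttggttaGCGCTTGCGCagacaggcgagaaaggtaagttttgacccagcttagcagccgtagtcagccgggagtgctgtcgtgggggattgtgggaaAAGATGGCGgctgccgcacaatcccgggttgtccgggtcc
UQCRC2, chr16:21953111-21953410, plus strand: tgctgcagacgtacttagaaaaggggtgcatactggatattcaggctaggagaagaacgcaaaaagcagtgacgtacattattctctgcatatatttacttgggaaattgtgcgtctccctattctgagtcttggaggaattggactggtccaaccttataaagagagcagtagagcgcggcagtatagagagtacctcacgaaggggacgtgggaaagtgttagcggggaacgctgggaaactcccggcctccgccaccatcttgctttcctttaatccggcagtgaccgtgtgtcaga
COX7C, chr5:86617691-86617990, plus strand: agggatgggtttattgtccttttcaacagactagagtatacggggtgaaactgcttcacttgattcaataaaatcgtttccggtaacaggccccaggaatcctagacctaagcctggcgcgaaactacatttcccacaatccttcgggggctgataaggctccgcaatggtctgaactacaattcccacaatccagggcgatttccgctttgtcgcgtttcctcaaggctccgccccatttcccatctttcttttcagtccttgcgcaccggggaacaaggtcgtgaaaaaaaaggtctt
NDUFA12, chr12:95003648-95003947, minus strand: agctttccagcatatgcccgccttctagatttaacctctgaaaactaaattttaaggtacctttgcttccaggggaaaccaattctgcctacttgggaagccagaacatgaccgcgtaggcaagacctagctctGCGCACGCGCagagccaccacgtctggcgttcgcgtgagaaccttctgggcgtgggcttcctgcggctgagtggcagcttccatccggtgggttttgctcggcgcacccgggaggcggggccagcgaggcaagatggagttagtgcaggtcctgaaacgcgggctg
NDUFA9 holds an NRF1 and a YY1 match, NDUFA12 an NRF1 match, and UQCRC2 and COX7C none of these letters. The NRF1 motif was found in 12 of the 50 subunit promoters (24%) and 8.58% of 15843 protein-coding promoters of the same length, the ETS motif in 15 (30%) and 14.2%, and the YY1 motif in 15 (30%) and 4.81%. At least 1 of the motifs was in 32 subunit promoters (64%), against 24.2% of protein-coding promoters. Among the 17 matched subunits that fell in senescent control cells 9 held a motif (52.9%), and among the other 33 it was 23 (69.7%), so the share was not higher among those that fell. The motifs do not overlap in the promoters shown, and a match describes letters, not binding.

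**Figure D2:**
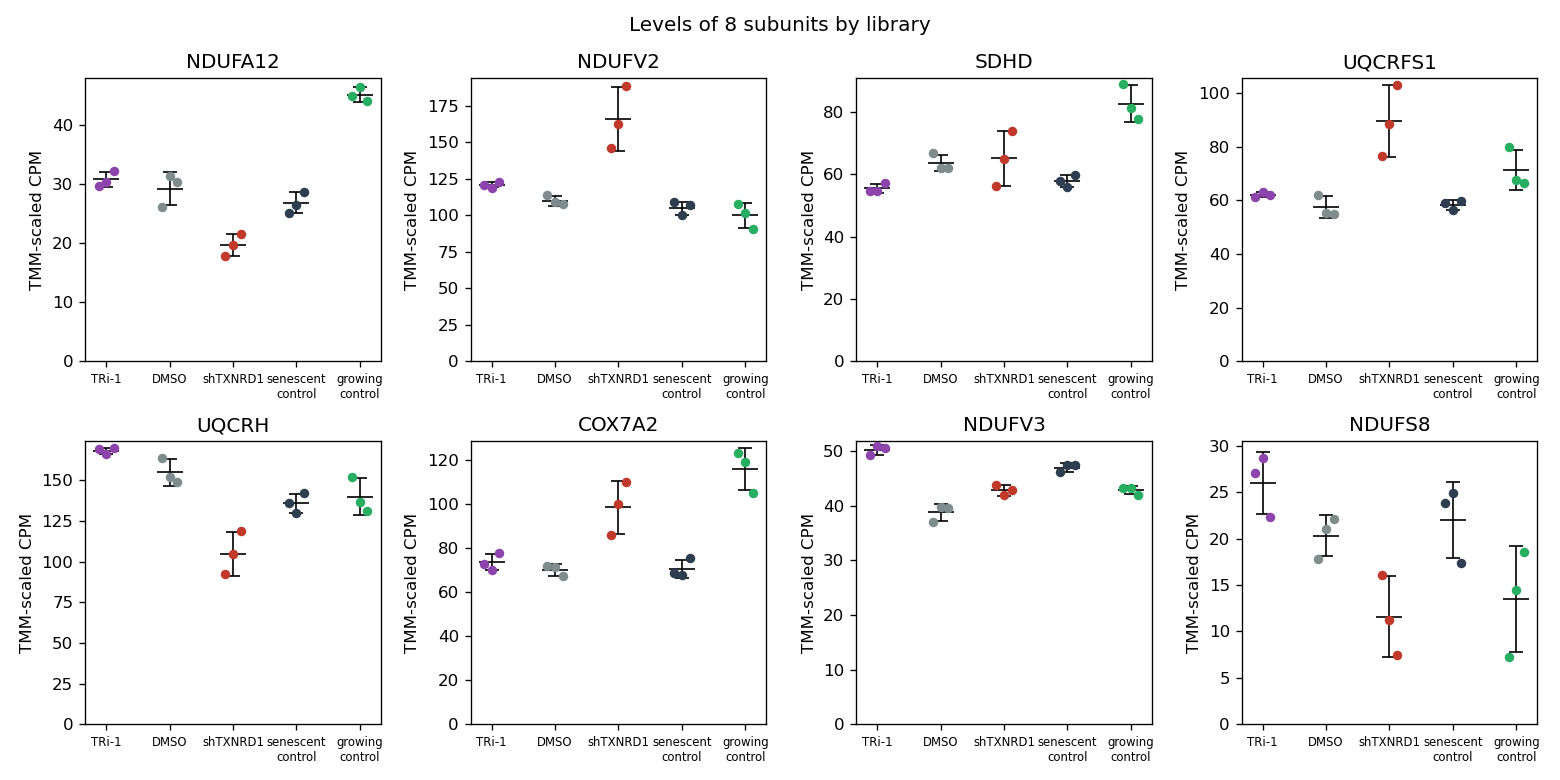
TMM-scaled CPM of 8 subunits in each library, 3 points per group, with the group mean (long bar) and SD (whiskers), on axes that start at 0. COX7A2 and UQCRFS1 are lower in senescent control than in growing control and higher with shTXNRD1 than in senescent control; NDUFA12 is lowest with shTXNRD1, and NDUFV3 is higher with TRi-1 than with DMSO.

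The hairpin libraries were then compared with senescent control libraries, which asks how loss of the TXNRD1 transcript moved the chain in senescent cells. Of the 59 subunits 17 rose and 7 fell (28.8% and 11.9%), where 25.8% of all genes tested rose and 24.8% fell. The share of rises is thus near that of all genes, and that of falls lower. The median change was 0.02 for the subunits and -0.01 for all genes, and the median absolute change 0.21 and 0.41. The summed level was 4076 ± 80 CPM with shTXNRD1 and 3711 ± 39.6 CPM in senescent control libraries. This comparison uses the same senescent control libraries as the one before, so the values of both are given side by side below and no overlap between them is read as a result.

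The core subunits of complex I that feed electrons in moved in both directions. NDUFV2, an iron-sulphur subunit next to the NADH site, had 146, 163 and 189 CPM with shTXNRD1 and 109, 100 and 107 CPM in senescent control libraries (0.66 ± 0.08, adjusted p = 1.77e-05). NDUFS3 had 40.2, 42.4 and 46.1 CPM with shTXNRD1 and 30.5, 29.1 and 29.9 CPM in senescent control libraries (0.52 ± 0.07, adjusted p = 2.57e-05). In both genes every hairpin library exceeded every senescent control library. NDUFS8 was the core subunit that fell, with 16.1, 11.2 and 7.43 CPM with shTXNRD1 and 23.8, 24.9 and 17.4 CPM in senescent control libraries (-0.93 ± 0.31, adjusted p = 0.0261). That call is weak: its replicates spread widely, and it was lost in 7 settings, among them the refits without senescent control replicate 1 or 2 or shTXNRD1 replicate 2 or 3. The summed level of the core was 552 ± 37.5 CPM with shTXNRD1 and 446 ± 3.06 CPM in senescent control libraries.

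Of the 30 accessory subunits 7 rose and 4 fell. NDUFA10, a membrane-arm subunit with a nucleoside kinase fold, had 105, 112 and 121 CPM with shTXNRD1 and 78.8, 76.8 and 80.3 CPM in senescent control libraries (0.52 ± 0.06, adjusted p = 4.3e-06). NDUFA9, at the junction of the arms, had 34.7, 47.1 and 50.2 CPM with shTXNRD1 and 26.8, 26.9 and 30 CPM in senescent control libraries (0.66 ± 0.12, adjusted p = 0.000305). Both were among the subunits that had fallen in senescent control against growing control cells, NDUFA10 by 0.23 and NDUFA9 by 0.50. NDUFS5, an intermembrane-space subunit, rose by 0.43 ± 0.08 (adjusted p = 0.000282) and NDUFB9 by 0.31 ± 0.06 (adjusted p = 0.000383). The other 3 rises were NDUFA5 (0.58), NDUFC2 (0.35) and NDUFS4 (0.27), and those of NDUFC2 and NDUFS4 were lost after the GC correction.

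NDUFA12 went the other way, with 17.8, 19.6 and 21.5 CPM with shTXNRD1 and 25.1, 26.5 and 28.7 CPM in senescent control libraries (-0.45 ± 0.09, adjusted p = 0.000581). Set beside its 44.8, 46.4 and 44 CPM in growing control cells, the 3 groups are fully separated. NDUFA6 fell by 0.22 ± 0.06 (adjusted p = 0.0102), NDUFB4 by 0.46 ± 0.15 (adjusted p = 0.0182) and NDUFV3 by 0.14 ± 0.05 (adjusted p = 0.0412). NDUFA12 and NDUFA6 are the subunits that were called lower in both comparisons; the NDUFA6 call with the hairpin was lost with the compared groups fitted alone, with no filter and with scaling on totals. The NDUFB4 call was lost without senescent control replicate 1 or 2 or shTXNRD1 replicate 3 and after the GC correction, and the NDUFV3 call in DESeq2 and in 5 of the 6 refits with a library left out.

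Complex II gave 1 call. SDHC rose by 0.27 ± 0.10 (adjusted p = 0.0439), with 89, 103 and 128 CPM with shTXNRD1 and 87, 86.6 and 92.5 CPM in senescent control libraries, so its groups overlap. DESeq2 and limma-voom did not call it, and among the 10 settings that lost the call are the fit without the 3 low-GC libraries and 5 of the 6 refits with a library left out. SDHD changed by 0.17 ± 0.09 (adjusted p = 0.109), SDHB by 0.09 ± 0.07 (adjusted p = 0.302) and SDHA by 0.04 ± 0.11 (adjusted p = 0.766). For SDHA, 4 pseudogenes were also counted, at 26.6 CPM together or 23.4% of SDHA, so its count is uncertain. The signs of SDHA and SDHB changed in some settings. The summed level of the 4 subunits was 341 ± 18 CPM with shTXNRD1 and 308 ± 1.15 CPM in senescent control libraries.

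In complex III, 3 subunits rose and 2 fell. UQCRFS1 had 76.6, 88.5 and 103 CPM with shTXNRD1 and 59.1, 56.3 and 59.7 CPM in senescent control libraries (0.62 ± 0.10, adjusted p = 0.00013). UQCRC2 had 150, 177 and 187 CPM with shTXNRD1 and 130, 124 and 122 CPM in senescent control libraries (0.45 ± 0.08, adjusted p = 0.000222), and UQCRB also rose by 0.45 ± 0.09 (adjusted p = 0.00112). All hairpin libraries lay above all senescent control libraries in these genes. UQCRH, the acidic hinge protein beside cytochrome c1, had 92.4, 105 and 119 CPM with shTXNRD1 and 136, 130 and 142 CPM in senescent control libraries (-0.37 ± 0.08, adjusted p = 0.00234). UQCR11, a small peripheral subunit, fell by 0.32 ± 0.11 (adjusted p = 0.0209), a call lost without senescent control replicate 1 or 2 or shTXNRD1 replicate 3. UQCRH thus fell in the same libraries in which the Rieske protein rose.

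In complex IV, 3 subunits rose. COX8A, a subunit with a single membrane helix, stood at -0.67 ± 0.28 (adjusted p = 0.0605), and was not called by edgeR with all libraries and no GC correction, or by limma-voom. It was called lower by DESeq2, and by edgeR with the 3 low-GC libraries left out or with GC content corrected for. COX7A2 had 85.8, 100 and 110 CPM with shTXNRD1 and 68.5, 67.8 and 75.5 CPM in senescent control libraries (0.48 ± 0.09, adjusted p = 0.000392). COX7B rose by 0.39 ± 0.10 (adjusted p = 0.00371) and COX7C by 0.21 ± 0.07 (adjusted p = 0.0172), the last lost after the GC correction and without senescent control replicate 2 or shTXNRD1 replicate 2. COX7A2 averaged 98.5 ± 12.1 CPM with the hairpin, 70.6 ± 4.22 CPM in senescent control and 116 ± 9.48 CPM in growing control libraries. The summed level of complex IV was 854 ± 29.6 CPM with shTXNRD1 and 809 ± 10.1 CPM in senescent control libraries, and that of complex III 804 ± 20.8 CPM with shTXNRD1 and 737 ± 8.96 CPM in senescent control libraries.

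Hairpin changes went with GC content in the other direction (Spearman correlation of -0.56 over the 59 subunits and -0.32 over all genes tested). After the GC correction 14 of the 17 rises and 6 of the 7 falls were still called, NDUFB10, NDUFB11 and NDUFV1 were also called higher, and COX8A, NDUFA4, NDUFB1 and NDUFS1 were also called lower. Without the 3 low-GC libraries the SDHC rise was lost, COX4I1 and NDUFB10 were also called higher, and COX8A was also called lower. Scaling on library totals moved the median change of all genes to 0.14, against -0.01 under TMM, and gave 26 subunits higher and 2 lower. With senescent control replicate 1 or 2 or shTXNRD1 replicate 3 left out, 3 subunits were called lower.

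**Figure D3:**
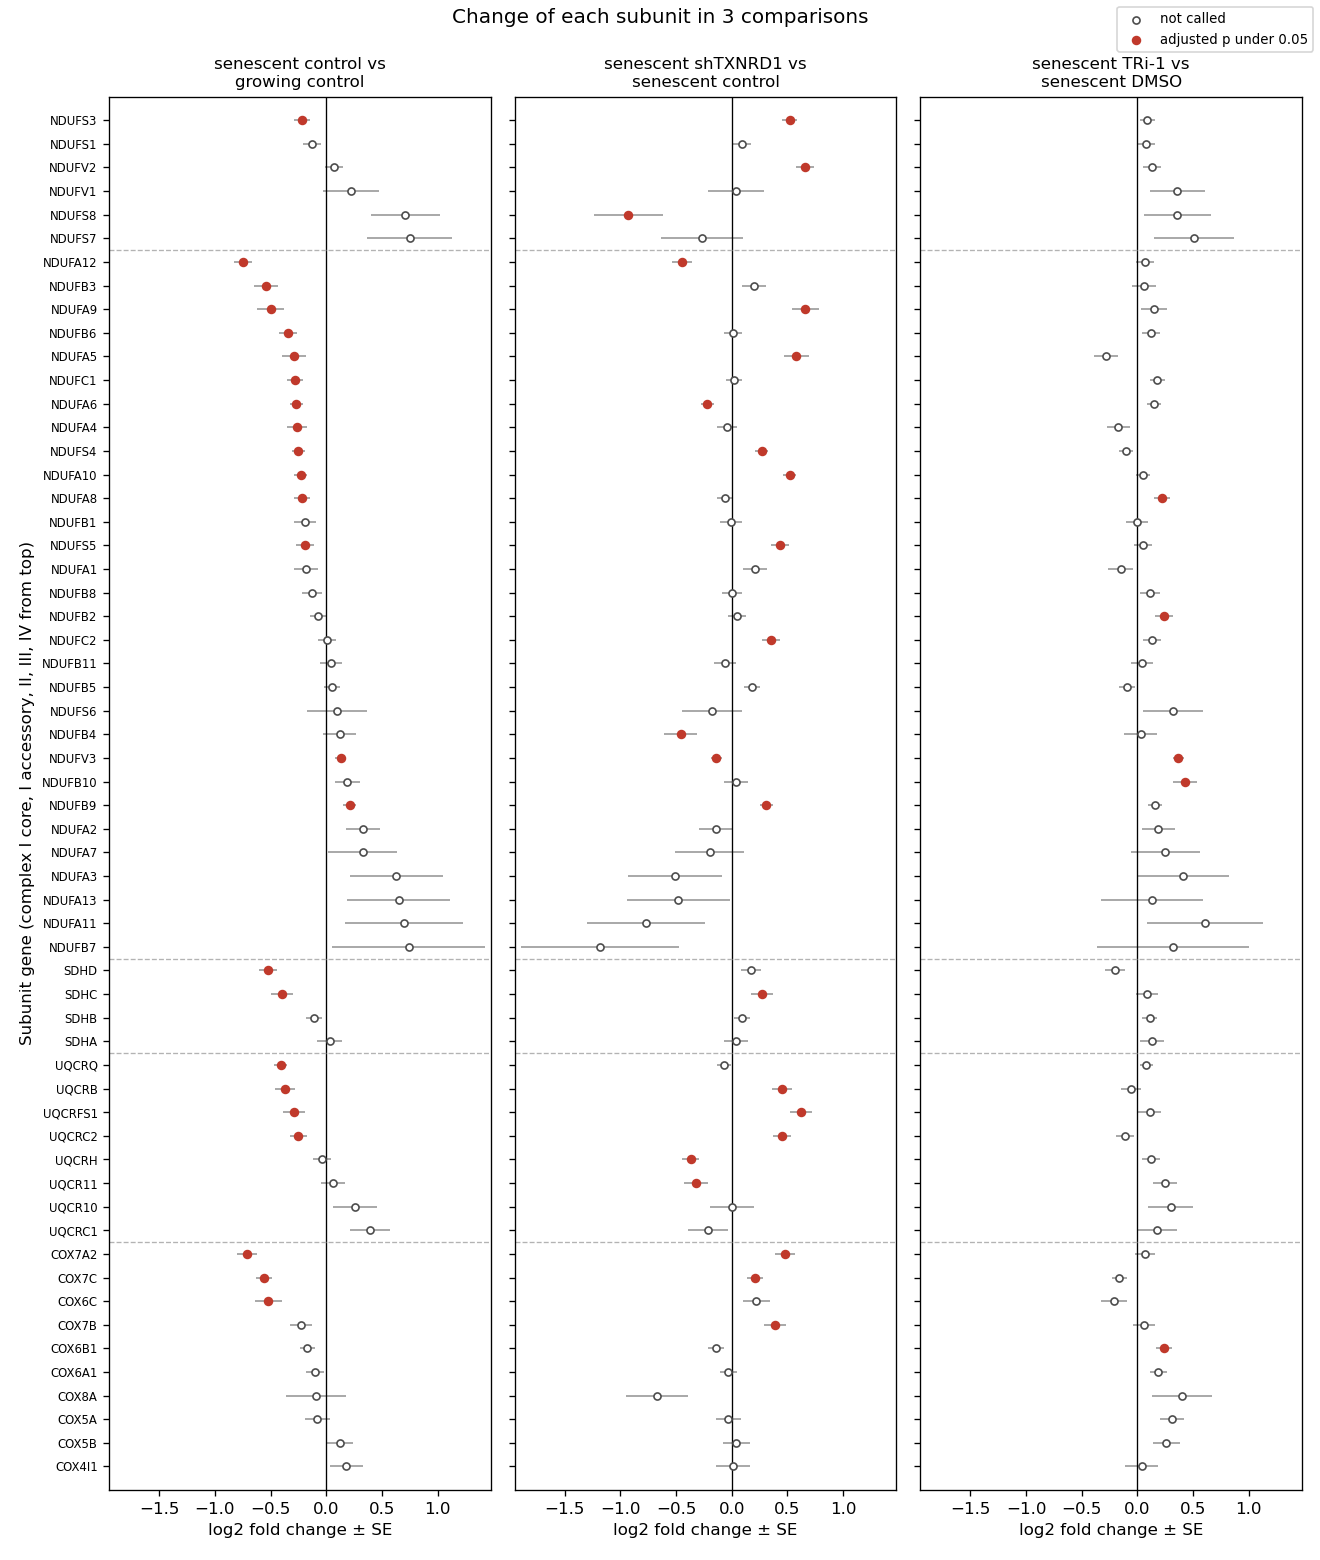
Log2 fold change with its SE (horizontal axis) of 58 of the 59 subunits (rows, by complex) in 3 comparisons, filled where the adjusted p was under 0.05. Filled points number 24 in senescent control against growing control, 23 with shTXNRD1 against senescent control and 5 with TRi-1 against DMSO, and the longest error bars belong to subunits of high GC content such as NDUFB7 and NDUFA11.

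TRi-1 libraries were compared with DMSO libraries, the chemical counterpart of the hairpin. Of the 59 subunits 5 rose (8.47%) and none fell, where 7.64% of all genes tested rose and 12.2% fell. DESeq2 and limma-voom also called no fall, and 14 subunits had an unadjusted p under 0.05 in either direction. The share of all genes under that unadjusted cut was not computed, so the 14 are not read as a result about the subunits. The estimates leaned upwards: 49 of the 59 were above 0, with a median of 0.13 against 0.01 for all genes. The summed level was 4104 ± 45.4 CPM with TRi-1 and 3844 ± 40.2 CPM with DMSO (SD, n = 3 each). For the complex I core it was 508 ± 7.21 CPM with TRi-1 and 457 ± 4.36 CPM with DMSO, and for the complex I accessory subunits 1503 ± 27.6 CPM with TRi-1 and 1412 ± 20.5 CPM with DMSO. For complex II it was 351 ± 1.53 CPM with TRi-1 and 337 ± 5.03 CPM with DMSO. For complex III it was 838 ± 1.53 CPM with TRi-1 and 794 ± 8.5 CPM with DMSO, and for complex IV 905 ± 13.5 CPM with TRi-1 and 845 ± 15.2 CPM with DMSO. In every complex the TRi-1 libraries lay above the DMSO libraries in this sum, which was not tested.

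NDUFV3 showed the clearest change, with 49.2, 50.9 and 50.5 CPM with TRi-1 and 37, 39.8 and 39.6 CPM with DMSO (0.37 ± 0.05, adjusted p = 0.000187), and it was called in every setting run. NDUFB10, a subunit of the membrane arm, had 71.8, 73.8 and 74.5 CPM with TRi-1 and 50.9, 53.8 and 58.8 CPM with DMSO (0.43 ± 0.11, adjusted p = 0.012). COX6B1, on the intermembrane-space face of complex IV, had 102, 105 and 107 CPM with TRi-1 and 89.9, 86.3 and 90.1 CPM with DMSO (0.24 ± 0.07, adjusted p = 0.0249). None of these groups overlapped. NDUFA8, a complex I accessory subunit, rose by 0.22 ± 0.07 (adjusted p = 0.0373) and NDUFB2 by 0.24 ± 0.08 (adjusted p = 0.0485). NDUFA8 had 41.2, 44.8 and 45.8 CPM with TRi-1 and 37.3, 38.2 and 37.8 CPM with DMSO, and NDUFB2 had 36, 37.2 and 37.8 CPM with TRi-1 and 31.1, 32.9 and 29.8 CPM with DMSO, again without overlap. The calls of NDUFA8 and NDUFB2 were lost in DESeq2 and under RLE and upper-quartile scaling. With 1 library left out, the NDUFA8 call was lost in 5 of 6 refits and the NDUFB2 call in all 6. The COX6B1 call was lost in all 6 such refits and after the GC correction, and the NDUFB10 call without DMSO replicate 1. Complex II gave no call: SDHD changed by -0.20 ± 0.09 (adjusted p = 0.126), SDHA by 0.13 ± 0.11 (adjusted p = 0.445), SDHB by 0.11 ± 0.07 (adjusted p = 0.292) and SDHC by 0.09 ± 0.10 (adjusted p = 0.573). SDHB was called higher after the GC correction, and SDHD was called lower after it, with the compared groups fitted alone and with the filter at a mean CPM of 5.

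The number of calls with TRi-1 depended on the setting. It was 17 higher and 1 lower after the GC correction, 9 higher without the 3 low-GC libraries (with COX5A, NDUFB9, UQCRFS1 and UQCRH added), and 1 to 3 higher with any 1 of the 6 TRi-1 and DMSO libraries left out. Calls over all genes tested moved as well. Rises numbered 2666 of 15433 genes after the GC correction and 1967 of 16209 without the 3 low-GC libraries. With all libraries and no correction they numbered 1222 of 15994. After the GC correction the 13 rises added were those of COX5A, COX7A2, COX7B, NDUFB3, NDUFC1, NDUFS1, NDUFS5, NDUFV2, SDHB, UQCR11, UQCRB, UQCRFS1 and UQCRH. The changes went with GC content across the 59 subunits (Spearman correlation of 0.69, and 0.31 over all genes tested), and the part of GC content in them was not tested beyond that correction.

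**Figure D4:**
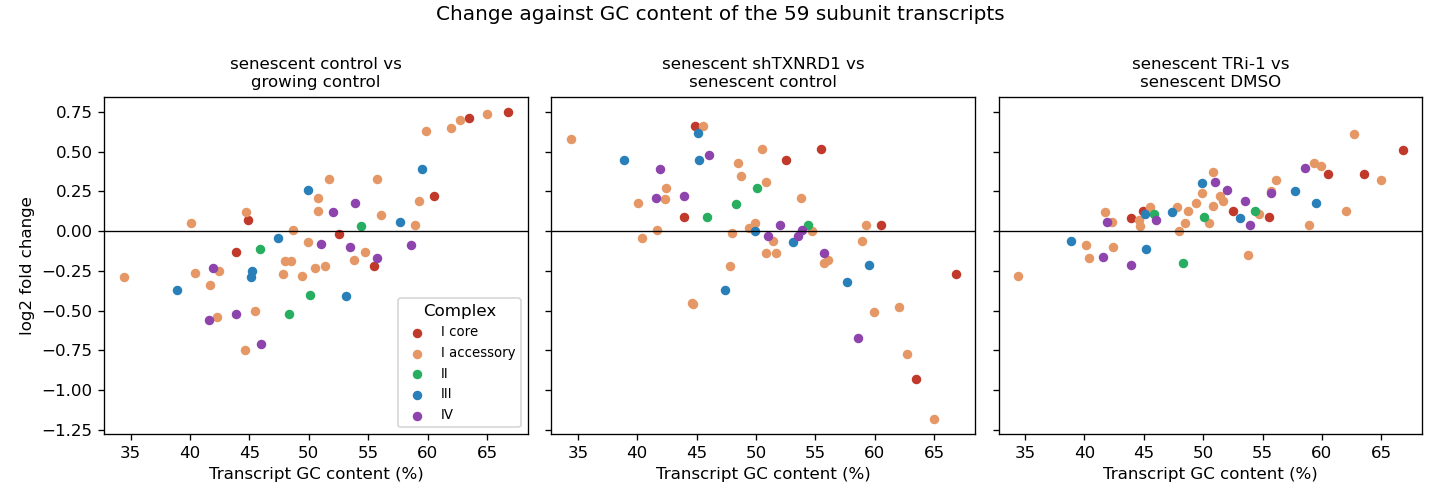
Log2 fold change (vertical axis) against the GC content of the transcript in percent (horizontal axis) for the 59 subunits in 3 comparisons, coloured by complex. Subunits of higher GC content stand higher in senescent control against growing control and in TRi-1 against DMSO, and lower in shTXNRD1 against senescent control, with Spearman correlations of 0.70, 0.69 and -0.56.

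The difference between the hairpin and inhibitor effects was tested directly, as the change with shTXNRD1 minus the change with TRi-1. It was called for 24 subunits, 15 in the direction of the hairpin being higher and 9 in that of it being lower (25.4% and 15.3%), where 22.1% and 19.5% of all genes tested were called. The subunits were thus called about as often as all genes. For NDUFA5, of the ubiquinone-reducing module, the hairpin change was 0.58 ± 0.11 and the TRi-1 change -0.28 ± 0.11, and the difference was 0.86 ± 0.16 (adjusted p = 0.000732). The libraries held 57.7, 64.7 and 71.5 CPM of NDUFA5 with shTXNRD1 and 46.4, 36.9 and 46.3 CPM in senescent control, and 36.9, 36.7 and 34.8 CPM with TRi-1 and 49.8, 40.3 and 42 CPM with DMSO. NDUFV3 was the only member called in both comparisons, in opposite directions (-0.14 with the hairpin and 0.37 with TRi-1, difference -0.51 ± 0.07, adjusted p = 8.95e-05). Its hairpin call was lost in 11 settings, and the sign turned with scaling on totals. Its DMSO libraries averaged 38.8 ± 1.59 CPM, against 47 ± 0.755 CPM in senescent control libraries. NDUFA10 (difference 0.47 ± 0.08, adjusted p = 0.000408), UQCRC2 (0.56 ± 0.11, adjusted p = 0.000981), NDUFS3 (0.44 ± 0.10, adjusted p = 0.00298) and NDUFV2 (0.52 ± 0.12, adjusted p = 0.0031) rose more with the hairpin. NDUFA12 (-0.52 ± 0.12, adjusted p = 0.00336) and UQCRH (-0.49 ± 0.12, adjusted p = 0.00485) differed the other way. In complex II the difference was called for SDHD (0.37 ± 0.12, adjusted p = 0.0246, lost without DMSO replicate 1, TRi-1 replicate 1 or 2 or senescent control replicate 2) and not for SDHC (0.17 ± 0.15), SDHB (-0.02 ± 0.09) or SDHA (-0.09 ± 0.15). After the GC correction the differences of COX7A2, COX7C, NDUFA9, NDUFB5, NDUFS4, UQCRB and COX6B1 were no longer called, and without the 3 low-GC libraries those of NDUFA9 and NDUFB5 were among the 3 lost. The hairpin and the inhibitor each have their own control libraries, so dose, duration and vehicle cannot be told apart from the kind of inhibition.

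DMSO libraries were also set against senescent control libraries. The labels do not say that these groups differ by the vehicle alone, so the vehicle cannot be told apart from other differences between them. No subunit rose and 1 fell, where 8.36% of all genes tested rose and 7.87% fell, and DESeq2 and limma-voom called no rise either. An unadjusted p under 0.05 was found for 8 subunits, and the matching share of all genes was not computed. The fall was that of NDUFV3, with 37, 39.8 and 39.6 CPM with DMSO and 46.1, 47.5 and 47.5 CPM in senescent control libraries (-0.28 ± 0.05, adjusted p = 0.00213). Its 49.2, 50.9 and 50.5 CPM with TRi-1 are thus high against DMSO libraries that were themselves low. The complex II subunits changed by 0.20 ± 0.11 (SDHA, adjusted p = 0.244), 0.18 ± 0.07 (SDHB, adjusted p = 0.0881), -0.02 ± 0.10 (SDHC, adjusted p = 0.949) and 0.14 ± 0.09 (SDHD, adjusted p = 0.314). Without the 3 low-GC libraries 5 subunits were called higher (COX6A1, NDUFA10, NDUFS4, SDHA and UQCRC1), and after the GC correction 6 were (NDUFA10, SDHB, SDHD, UQCRC1, UQCRC2 and UQCRH). NDUFB10 was also called lower in both of these settings. Over all genes tested, rises numbered 1953 of 16209 without the 3 low-GC libraries and 2267 of 15433 after the GC correction. With all libraries and no correction they numbered 1337 of 15994. With DMSO and senescent control fitted alone SDHB and SDHD were called higher as well.

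Genes that work with the chain were described by lists of the pathway, whose counts stand beside the shares of all genes tested: 29.5% fell and 27.4% rose in senescence, 24.8% fell and 25.8% rose with the hairpin, and 12.2% fell and 7.64% rose with TRi-1. No list was tested against these shares or against another list. Of 18 ATP synthase genes 12 fell (66.7%) and 1 rose in senescent control against growing control cells (median -0.30), with ATP5MC3, of the membrane ring (-0.53 ± 0.06, adjusted p = 3.02e-06), and ATP5F1A, the alpha subunit of the soluble head (-0.58 ± 0.09, adjusted p = 9.37e-05), first by p. With the hairpin 8 rose (44.4%) and 1 fell (median 0.13), and with TRi-1 3 rose (16.7%; median 0.17). The summed ATP synthase level was 2144 to 2266 CPM in senescent control and 2669 to 2916 CPM in growing control libraries. Of 74 mitochondrial ribosomal protein genes, which build the ribosome that translates the mitochondrially encoded subunits, 26 fell (35.1%) and 5 rose in senescence (median -0.12), with MRPL24 (-1.16 ± 0.10) and MRPL3 (-0.70 ± 0.09) first by p. With the hairpin 29 rose (39.2%) and 5 fell (median 0.17), with MRPS23 and MRPS35 (0.64 each) first by p, and with TRi-1 4 rose (5.41%).

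Of 23 complex IV assembly factors 11 fell (47.8%) and 4 rose in senescence (median -0.18), with TACO1, a translational activator of a mitochondrial subunit, at -0.51 ± 0.07 and COX20, a chaperone of another mitochondrially encoded subunit, at -0.59 ± 0.08. With the hairpin 11 of the 23 rose (47.8%) and 1 fell (median 0.22), with LRPPRC, which stabilises mitochondrial mRNAs, at 0.80 ± 0.09 and SCO1, a copper chaperone, at 0.50 ± 0.07. Of 18 complex I factors 5 fell (27.8%) and 2 rose in senescence, with NUBPL, an iron-sulphur protein needed for the complex, at -0.74 ± 0.09 and NDUFAF2, the factor related to NDUFA12, at -0.41 ± 0.07. With the hairpin 6 of these rose (33.3%) and 2 fell. Of 10 factors of complexes II and III, 3 fell and 4 rose (40%) in senescence, and 4 rose (40%) and 1 fell with the hairpin, TTC19 by 0.80 ± 0.09. With TRi-1 the called members were 1 of 18, 4 of 23 and 3 of 10 higher for complexes I, IV and II with III, and 1 of the last list lower, with NDUFAF8 (0.43 ± 0.09), COA7 (0.36 ± 0.08) and BCS1L (0.54 ± 0.10) as examples.

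Regulators of mitochondrial biogenesis and DNA maintenance moved without a common direction in senescence, with 4 of 19 higher (21.1%) and 6 lower (31.6%). PPARGC1A, the transcriptional coactivator of biogenesis, had 1.7, 0.989 and 1.45 CPM in senescent control and 0.238, 0.205 and 0.188 CPM in growing control libraries (2.68 ± 0.26, adjusted p = 7.62e-07), at a very low level, and PPARGC1B rose by 1.15 ± 0.16. TFAM, which packages and transcribes mitochondrial DNA, had 58.3, 59.1 and 72.1 CPM with shTXNRD1 and 30.1, 25.8 and 29 CPM in senescent control libraries (1.16 ± 0.10, adjusted p = 3.42e-07). TWNK, the mitochondrial DNA helicase, had 19.2, 21.6 and 18.1 CPM with shTXNRD1 and 10.4, 10.2 and 11 CPM in senescent control libraries (0.90 ± 0.09, adjusted p = 1.58e-06). These hairpin libraries lay above all others of the study for both genes. With the hairpin 7 of the 19 rose (36.8%) and 1 fell, and with TRi-1 4 rose (21.1%) and 1 fell, TWNK by 0.38 ± 0.09 and TEFM, a mitochondrial transcription elongation factor, by 0.46 ± 0.11 upwards.

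Among other entry points to the chain, SQOR and GPD2 changed by more in senescence than any of the 59 subunits. SQOR, which passes electrons from sulphide to ubiquinone, rose by 1.80 ± 0.09 in senescent control against growing control cells (adjusted p = 5.76e-10) and fell by 0.78 ± 0.09 with the hairpin (adjusted p = 5.28e-06). GPD2, the mitochondrial glycerol-3-phosphate dehydrogenase, fell by 1.89 ± 0.11 in senescence (adjusted p = 4.13e-09) and by 0.54 ± 0.12 with the hairpin. In that list of 6, 1 rose and 3 fell in each of these comparisons, and with TRi-1 DHODH, which links pyrimidine synthesis to ubiquinone, rose by 0.75 ± 0.18. Of 11 ubiquinone synthesis genes 6 fell (54.5%) and 3 rose in senescence, COQ3 by -1.5 ± 0.19 and COQ4 by 0.96 ± 0.13, and 5 rose (45.5%) and 1 fell with the hairpin, COQ3 by 1.02 ± 0.19. With TRi-1 3 of these rose, COQ4 by 0.88 ± 0.13. Of 13 citric acid cycle genes 6 fell (46.2%) and 1 rose in senescence, FH (fumarase) by 1.23 ± 0.09 downwards, 3 rose (23.1%, near the share of all genes) and 2 fell with the hairpin, and 4 rose (30.8%) with TRi-1, IDH3B by 0.39 ± 0.07.

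Of 20 genes for import and the outer membrane 7 fell (35%) and 1 rose in senescence, TIMM9 by -0.68 ± 0.11 and TOMM22 by -0.47 ± 0.08. With the hairpin 7 rose (35%) and 3 fell, VDAC1, the main outer-membrane channel, by -0.98 ± 0.08 and TOMM20 by 0.61 ± 0.08, and with TRi-1 6 rose (30%), TIMM8A by 0.73 ± 0.11. Among 5 supercomplex factors 1 rose and 1 fell in senescence (HIGD2A 0.56 ± 0.17 and HIGD1A -0.24 ± 0.09), and COX7A2L rose by 0.22 ± 0.07 with the hairpin. Of the 12 subunits and isoforms outside the naming rule 6 passed the filter. The tissue isoforms COX4I2, COX6A2 and COX7B2 were at 0 in all libraries. COX7A1, the muscle form of subunit VIIa, had 6.69, 8.95 and 6.4 CPM in senescent control and 2.14, 3.33 and 4.13 CPM in growing control libraries (1.2 ± 0.29, adjusted p = 0.00303), the opposite direction to COX7A2. CYCS (cytochrome c) rose by 0.50 ± 0.10 and NDUFAB1 (acyl carrier protein) by 0.40 ± 0.07 with the hairpin, and COX6B2 by 1.39 ± 0.37 in senescence.

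Some counts carry a further limit. By the GENCODE annotation many of the 59 overlap other genes, and these are examples. NDUFS3 overlaps CELF1 on the opposite strand and PTPMT1 on its own, NDUFB2 overlaps BRAF, NDUFB3 overlaps HYCC2 and SDHD overlaps TIMM8B. On its own strand NDUFA9 overlaps unnamed genes that averaged 13.5 and 4.41 CPM over all libraries, and NDUFC1 overlaps MGARP (15.2 CPM). On the opposite strand NDUFB9 overlaps TATDN1 (18.1 CPM), NDUFA2 overlaps IK (110 CPM), NDUFB8 overlaps HIF1AN (125 CPM) and NDUFS1 overlaps EEF1B2 (271 CPM). The strand used in counting is not given in the sources used here, so reads shared by such pairs cannot be told apart. Of the 59 subunits 36 have pseudogenes in the table, and SDHA was the only one whose pseudogenes exceeded 5% of its own level. In all, 24 of the 59 subunits were called in none of the senescence, hairpin and TRi-1 comparisons with all libraries, TMM scaling and no GC correction, among them COX4I1, COX5A, COX5B, NDUFS1, SDHA and SDHB. The matching share of all genes tested was not computed, so this count is not read as a result about the subunits.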

How the data were processed

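RNA was measured in 15 libraries of IMR90 cells (75 bp paired-end reads of KAPA RNA HyperPrep libraries, per the labels). The authors deposited unscaled counts per Ensembl gene, as whole numbers. RSEM 1.2.3, DESeq2, hg19 and mm10 are named, per the submitters' processing notes, so the counts may be rounded estimates. Aligner, annotation and counting strand: not given in the sources used here. Symbols were matched by identifier for 52301 of 57736 genes.

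All 15 libraries were fitted in a single model with edgeR 4.0.16 (R 4.3.3; TMM, filterByExpr, robust quasi-likelihood F test, 10 residual degrees of freedom). P-values are two-sided, adjusted by Benjamini-Hochberg over the 15994 genes of a comparison, and called under 0.05. Levels are TMM-scaled CPM; errors of changes are SE from the model. With 3 libraries against 3, an exact permutation test of a single gene cannot go below p = 0.1. On simulated data in which 200 genes drawn from all expressed genes were changed, the fit recovered 78% to 88% of 2-fold and 41% to 52% of 1.5-fold changes. It made 3 to 9 false calls. Far more genes were called in the real comparisons of senescence, hairpin and TRi-1, and the subunits were not simulated apart. These rates are therefore not rates for the subunits. No replicates agreed within sampling noise.

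Members and lists were chosen with earlier results of these data known. Named are, per comparison and complex, up to 4 called members each way by p, called changes of 2-fold, complex II, members called with both inhibitions, and 2 genes per list by p; others were chosen after their values were seen. Results of 2 genes of these lists are not reported here, though the counts include them. Alternatives were other scalings and filters, DESeq2 1.42.0, limma-voom (limma 3.58.1), the compared groups alone, a replicate block, GC and length corrections (GENCODE v29 transcripts), each library left out, and, chosen after seeing the data, the 3 low-GC libraries left out. Where a left-out library leaves 2 in a group, the shared spread is assumed.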

Additional observations from a re-analysis of the deposited data

Results flagged for a closer look

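For 21 named subunits the change with shTXNRD1 differed from the change with TRi-1, by the edgeR test of the difference itself (hairpin change minus inhibitor change, log2, adjusted p under 0.05). Of all 59 subunits 25.4% were called higher and 15.3% lower in this difference, where 22.1% and 19.5% of all genes tested were. These shares are near each other, so the number called is not read as a result about the subunits. In complex I the core subunits gave 0.52 (NDUFV2), 0.44 (NDUFS3) and -1.29 (NDUFS8). Its accessory subunits gave 0.86 (NDUFA5), 0.47 (NDUFA10), 0.38 (NDUFS5) and 0.37 (NDUFS4) upwards, and -0.52 (NDUFA12), -0.51 (NDUFV3), -0.37 (NDUFA6) and -0.28 (NDUFA8) downwards. In complex II the value was 0.37 (SDHD). Complex III gave 0.56 (UQCRC2), 0.50 (UQCRB), 0.50 (UQCRFS1), -0.49 (UQCRH) and -0.57 (UQCR11), and complex IV 0.41 (COX7A2), 0.37 (COX7C), -0.38 (COX6B1) and -1.07 (COX8A). Over the 59 subunits the Spearman correlation between this difference and GC content was -0.65, and the called subunits with the lowest values, NDUFS8 and COX8A, have a GC content of 63.5% and 58.6%. With other settings, single libraries left out included, the call was lost in 16 settings for COX8A, 11 each for NDUFS8 and NDUFA8 and 4 for SDHD. After the GC correction 9 of the 15 subunits called higher and 8 of the 9 called lower in this difference were still called.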

How the results depend on the processing

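Of 63 named calls 36 were kept in every setting run. Numbers of subunits called moved by over 1.5 times in these cases. In senescent control against growing control, subunits called higher (2) numbered 7 after the GC correction, 4 with a filter at a mean CPM of 5, 0 with no filter, and 1 with a replicate block or scaling on totals. With shTXNRD1 against senescent control, those higher (17) numbered 26 with scaling on totals, and those lower (7) numbered 2 with the compared groups alone or scaling on totals and 4 with no filter. With TRi-1 against DMSO, those higher (5) numbered 17 after the GC correction, 15 with the compared groups alone, 10 with scaling on totals, 9 without the 3 low-GC libraries, 3 in DESeq2, under RLE or upper-quartile scaling, the length correction, the filter at 5 or the block, and 2 with no filter; those lower (0) numbered 1 after the GC correction, 5 with the groups alone and 3 with the filter at 5. In the difference between the inhibitions those lower (9) numbered 14 after the GC correction. With DMSO against senescent control those higher (0) numbered 6 after the GC correction, 5 without the low-GC libraries, 7 with the groups alone, 2 with the filter at 5, and 1 under the length correction or upper-quartile scaling; those lower (1) numbered 2 after the GC correction, without the low-GC libraries and with scaling on totals. Counts over all genes tested moved between settings as well. Rises in senescence numbered 4383 of 15994 genes with the settings of the Results and 5376 of 15433 after the GC correction. With the hairpin they numbered 4134 of 15994, and 5650 of 15994 with scaling on totals. With TRi-1 they numbered 1222 of 15994, and 2344 of 14976 with the groups alone. The shifts were thus not confined to the subunits, and their cause was not tested.

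With 1 library left out, subunits called higher and lower numbered 1 to 3 and 17 to 24 in senescent control against growing control, 15 to 22 and 3 to 9 with shTXNRD1 against senescent control, and 1 to 3 and 0 to 0 with TRi-1 against DMSO. They numbered 11 to 18 and 6 to 12 in the difference, and 0 to 0 and 1 to 1 with DMSO against senescent control.

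Reversed signs were small. SDHA turned in senescence to -0.07 without the low-GC libraries and -0.01 after the GC correction (-0.07 to 0.11 with a library left out). With the hairpin it ran from -0.05 to 0.14 with a library left out. In the difference it turned to 0.08 without the low-GC libraries, 0.01 after the GC correction and 0.02 with scaling on totals, and ran from -0.18 to 0.01 with a library left out. SDHB turned after the GC correction to 0.07 in senescence and -0.09 with the hairpin, and in the difference to 0.03 under the length correction, 0.01 with the filter at 5, 0.08 with scaling on totals, 0.06 under upper-quartile scaling, and it ran from -0.07 to 0.01 with a library left out. SDHC with DMSO turned to 0.01 with the groups alone and ran from -0.04 to 0.01 with a library left out, and NDUFV3 with the hairpin to 0.02 with scaling on totals.

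Same-numbered libraries did not deviate together (correlations from -0.611 to 0.423 for replicate 1), so the numbers are not read as pairs. With a replicate block in the model the subunits called higher and lower numbered 1 and 21 in senescence, 16 and 6 with the hairpin, 3 and 0 with TRi-1, 14 and 7 in the difference, and 0 and 1 with DMSO. The spread between replicates limits the calls for subunits of high GC content: the median SE was 0.42 for the 6 with at least 60% GC and 0.09 for the other 53 in senescence.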
